A study of Mus musculus with 3 samples.

Results

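Of the 15011 c-FOS peaks in the list, 11 lay in windows around 4 genes that control whether a cell divides or stops dividing: Ccnd1, Myc, Cdkn1a and Cdkn2a. A peak belonged to a window if its midpoint fell inside it. The windows were each 120 kb long on the mouse assembly mm9, from 152.06 to 152.18 Mb on chromosome 7 for Ccnd1, from 61.76 to 61.88 Mb on chromosome 15 for Myc, from 29.17 to 29.29 Mb on chromosome 17 for Cdkn1a and from 88.87 to 88.99 Mb on chromosome 4 for Cdkn2a. A wider window of 1.70 Mb, from 61.3 to 63.0 Mb on chromosome 15, served as a second setting for Myc. Every window held at least 1 peak, as did 28.0% of all windows of this size over the genome. The Cdkn1a window held 4, the Ccnd1 and Myc windows 3 each and the Cdkn2a window 1.

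The peaks came from chromatin immunoprecipitation followed by sequencing (ChIP-seq), in which DNA bound by a protein is pulled down with an antibody and sequenced. The cells were ASZ001, an established mouse basal cell carcinoma line, of the genotype RasV12_TGFbR1kd (an activated Ras with a knockdown of the TGF-beta receptor TGFbR1), treated with Dox and 4OHT and crosslinked on the sixth day after induction. There were 2 samples with an antibody against c-FOS and 1 input without antibody, all of the same line, genotype and treatment, so no value here compares induced with uninduced cells or RasV12 with its absence. Dox and 4OHT are the inducing agents, and the labels do not say which element each one drives. The list names no replicate and gives only positions, so the depth is unknown, no value has a replicate error and no test was made. A list of positions also cannot show the level of any marker of the cell type, so the identity of the line was not checked.

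c-FOS pairs with a JUN protein to form the transcription factor AP-1, which is switched on by growth signals that pass through Ras. Cyclin D1, the product of Ccnd1, and the transcription factor MYC are induced early when a resting cell is pushed to divide. The products of Cdkn1a and Cdkn2a act the other way. Cdkn1a encodes an inhibitor of cyclin-dependent kinases that is a classic target of Trp53, and Cdkn2a encodes the kinase inhibitor Ink4a and, from another start and reading frame, Arf, which protects Trp53 from Mdm2. Both arrest genes are known for their part in the senescence that activated Ras can bring about in cultured cells.

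Together the 4 windows spanned 480 kb and held 22.9 c-FOS peaks per Mb, where the genome as a whole held 5.65 per Mb. The 11 peaks were 0.0733% of the list (Wilson 95% interval 0.0409 to 0.131%, counting error only, with peaks taken as independent). Since 38.5% of the list had another peak within 5 kb, this interval is likely too narrow. A peak in such a window was not rare in itself. When the genome was tiled in 22113 windows of 120 kb, 28.0% held at least 1 peak, and a window with any peak held a median of 2. The tiling included gene-poor sequence and assembly gaps, so it is a wide background for windows placed on genes. Gaps can hold no peak, so they lower both the share of windows with a peak and the genome's peaks per Mb. Windows placed on genes in general were not counted.

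**Figure D1:**
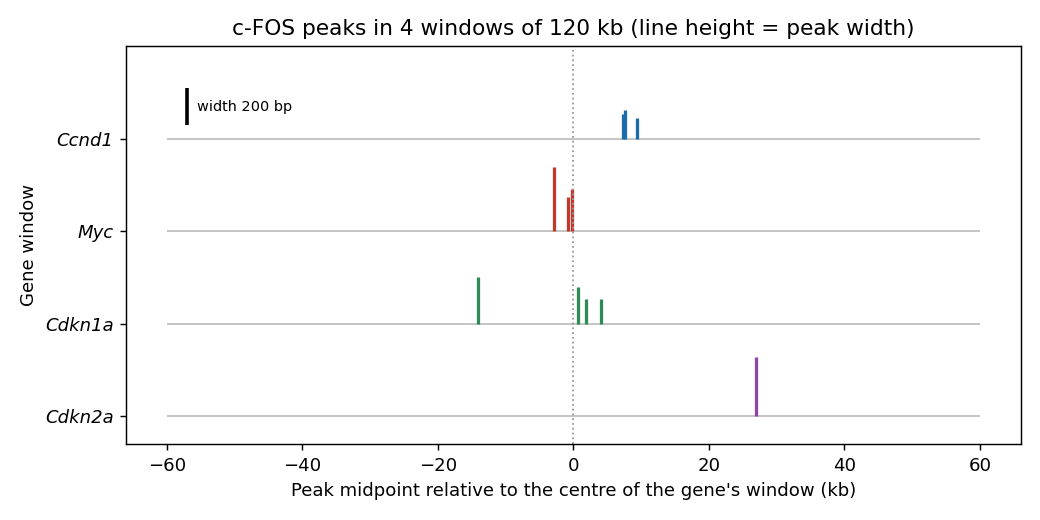
Position of each c-FOS peak (vertical line, height proportional to its width, with a scale line of 200 bp) relative to the centre of its gene's 120 kb window, in kb, for the 4 windows. In the Ccnd1, Myc and Cdkn1a windows 3 peaks stand close together within 10 kb of the centre. The single peak of the Cdkn2a window lies 27.0 kb from its centre.

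The 3 peaks of the Ccnd1 window stood in a tight row. Ccnd1 encodes cyclin D1, the partner of Cdk4 and Cdk6 that starts the phosphorylation of the retinoblastoma protein. The first peak lay at chr7:152127344-152127474 and measured 131 bp. The second followed after a gap of 133 bp at chr7:152127608-152127761, with a width of 154 bp. The third, at chr7:152129325-152129435, was 111 bp wide and stood 1563 bp further on. All 3 midpoints thus fell within 1.97 kb, between 7.4 and 9.4 kb to the right of the window's centre, and all 3 peaks were narrower than the list's median of 158 bp.

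The Ccnd1 group was isolated. To the left the next peak ended 403 kb before the window (chr7:151656642-151656739), and to the right the next one began 62.3 kb after it (chr7:152242334-152242616). The Ccnd1 window ended 345 kb before the end of chromosome 7, so only 2 further whole windows fitted on its right and 10 were counted on its left. Of these 12 windows 8 held no peak, and none held more than 1. Chromosome 7 was a little sparser than the genome, with 4.65 against 5.65 peaks per Mb. A peak was present in 25.9% of its windows, against 28.0% over the genome, and 6.85% of its windows held at least 3. Over the whole genome 8.59% of windows held at least 3 peaks. The protein-coding genes beside Ccnd1 in the gene table are Fgf4, Fgf15 and LTO1 on one side and Tpcn2, Smim38 and Mrgprf on the other.

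The Myc window also held 3 peaks, all within 3 kb of its centre. Myc encodes the transcription factor that drives growth and ribosome production in dividing cells. Its first peak, at chr15:61817021-61817368, was 348 bp wide, the widest of the 11, and 92.6% of the list was narrower. The second lay at chr15:61819107-61819288 (182 bp) and the third at chr15:61819702-61819929 (228 bp), 413 bp apart from each other. The midpoints sat at -2.8, -0.8 and -0.2 kb from the window's centre and spanned 2.62 kb. In contrast to the Ccnd1 group, all 3 were wider than the list's median.

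Inside the wider window, more distal peaks were listed to the right of the Myc window than to its left. The wider window held 9 peaks, of which 6 were outside the 120 kb window, 1 to the left and 5 to the right. It reached 520 kb to the left of the centre and 1180 kb to the right, and within 520 kb on the right there were 4. The left one, at chr15:61364637-61364833, was at -455.3 kb from the centre of the Myc window. On the right, chr15:61910857-61911175 (319 bp) and chr15:61915146-61915290 (145 bp) stood 3970 bp apart at 91.0 and 95.2 kb. They were followed by chr15:61938184-61938484 (301 bp) at 118.3 kb, chr15:62034820-62034980 (161 bp) at 214.9 kb and chr15:62401077-62401226 (150 bp) at 581.2 kb. Beyond the last of these, the wider window and the next 829 kb held no listed peak. On the left, the list went on outside the wider window. The next peak, chr15:61285587-61285942, lay 14.1 kb beyond its edge. Windows of 120 kb centred 720, 840 and 1200 kb to the left held 1, 3 and 2 peaks. At an equal reach of 1.2 Mb the left side thus held more peaks than the right, so the direction depends on where the wider window ends.

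The wider Myc window was below the mean density of its chromosome, but its count was above the genome's median for windows of its size. It held 5.29 peaks per Mb, 0.717 times the 7.38 per Mb of chromosome 15. Windows of 1.70 Mb over the genome held a median of 4 peaks, and 33.8% of them held at least 9. On chromosome 15, 45.0% of the windows of 1.70 Mb held at least 9. The 120 kb window itself held 25.0 peaks per Mb, 3.39 times its chromosome. On chromosome 15 a peak was present in 35.6% of 120 kb windows, and 11.5% held at least 3. In the gene table, the long noncoding RNA gene Pvt1 directly follows Myc, which was looked up after the distal peaks were seen, and no peak was assigned to it. The protein-coding neighbours by rule are 4933412E24Rik, Lratd2 and A1bg before Myc and Gsdmc, Gsdmc2 and Gsdmc3 after it.

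**Figure D2:**
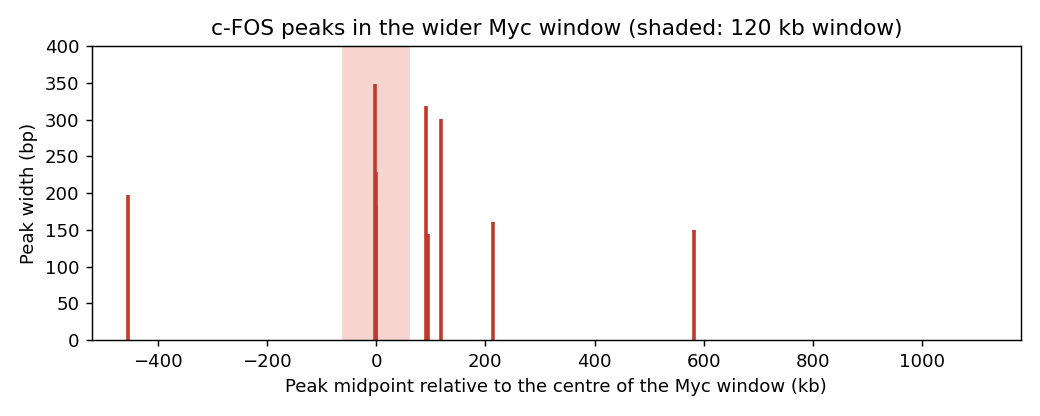
c-FOS peaks in the wider Myc window of 1.70 Mb, drawn as vertical lines at their midpoint relative to the centre of the 120 kb window (shaded), in kb, with peak width in bp as height. A group of 3 stands at the centre, 1 peak lies to the left and 5 lie to the right, the farthest at 581.2 kb.

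Cdkn1a, on the arrest side, had the window with the most peaks. The first of its 4 peaks, chr17:29215831-29216083, was 253 bp wide and stood apart, 14.0 kb to the left of the window's centre and 14.5 kb before the next peak. The other 3 were grouped at 0.7, 1.9 and 4.1 kb to the right of the centre. They lay at chr17:29230615-29230811 (197 bp), chr17:29231844-29231975 (132 bp) and chr17:29234058-29234189 (132 bp), with gaps of 1032 and 2082 bp between them, and their midpoints spanned 3.41 kb. Widths thus fell on both sides of the list's median, 2 above and 2 below it.

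The neighbourhood of Cdkn1a was also well filled. At least 4 peaks were found in 5.34% of windows over the genome and in 8.95% of those on chromosome 17, where 36.1% of windows held a peak. Of the 20 windows beside it, 5 were empty, 3 held at least 4 peaks and the fullest held 6. The next peaks outside the window were 25.0 kb to its left (chr17:29144918-29145029) and 6.71 kb to its right (chr17:29296712-29296851). In the gene table Kctd20, Stk38 and Srsf3 precede Cdkn1a, and Rab44, Cpne5 and Ppil1 follow it.

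The Cdkn2a window held a single peak. It lay at chr4:88956801-88957122, 27.0 kb to the right of the window's centre, and with 322 bp it was wider than 90.5% of the list. No other peak of the list was closer than 60401 bp to it. The nearest ones lay 6.47 kb before the window (chr4:88863403-88863526) and 27.5 kb after it (chr4:89017524-89017644). A count of 1 was ordinary for chromosome 4, where 32.1% of windows held at least 1 peak, and 7 of the 20 windows beside it held as many or more, 1 of them 8 peaks.

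The gene table places Mtap, Ifne and Ifna1 on one side of Cdkn2a and Cdkn2b, Dmrta1 and Zfp352 on the other. Cdkn2b encodes Ink4b, a related kinase inhibitor known as a target of TGF-beta signalling. Gene positions on mm9 were not used here. Whether the single peak lies at Cdkn2a, at Cdkn2b or between them was therefore not determined, and the same holds for the position of the other 10 peaks relative to start sites, exons and introns.

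**Figure D3:**
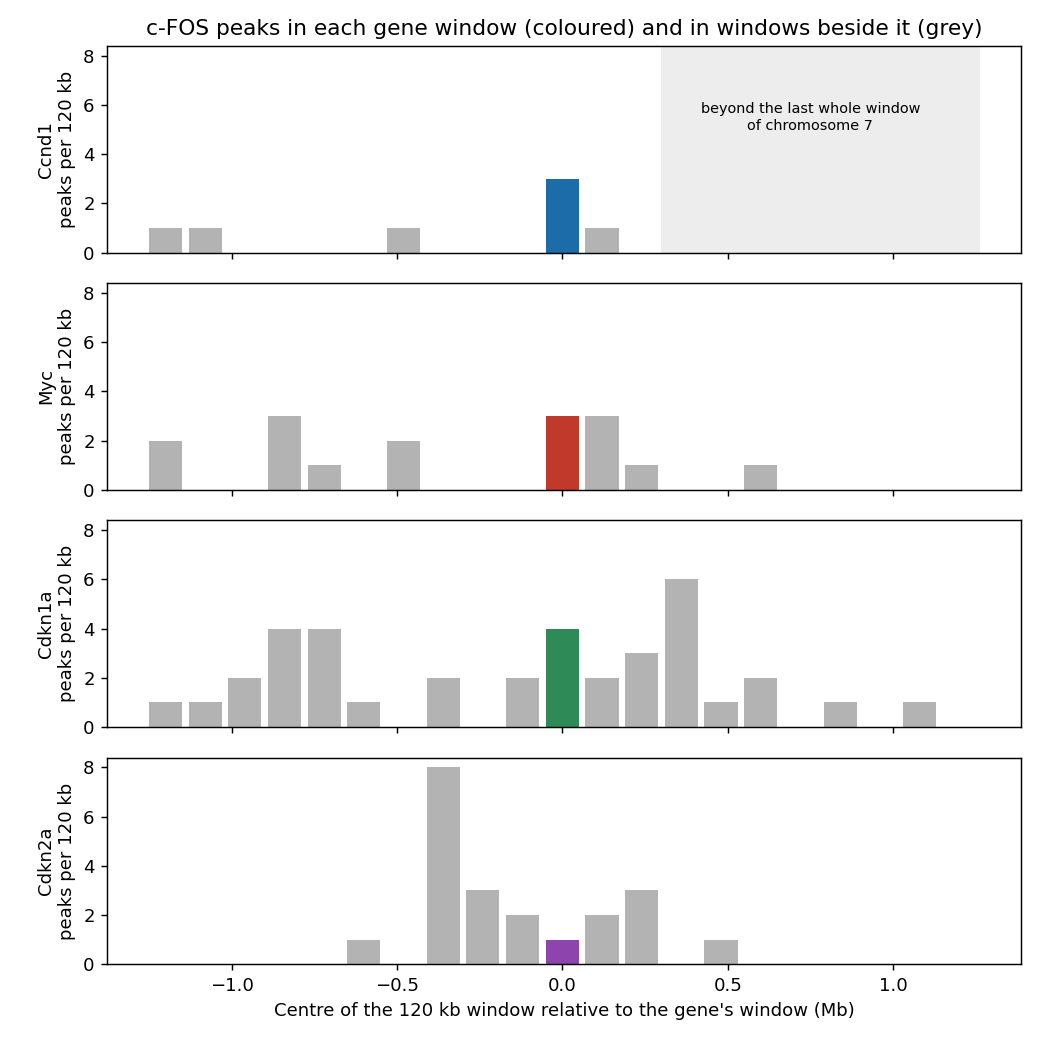
Number of c-FOS peaks in each gene's 120 kb window (coloured bar) and in adjoining windows of the same size out to 1.2 Mb on either side (grey bars), by distance between window centres in Mb. The Ccnd1 window stands above all 12 of its neighbours on chromosome 7, whose end limits the right side, whereas the Cdkn2a window holds 1 peak beside windows with up to 8.

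Close grouping was the feature that the Ccnd1, Myc and Cdkn1a windows shared. In each of these 3 windows, 3 peak midpoints fell within 4 kb, a span chosen after the positions were seen. Over the genome 1.90% of windows had such a group. Among the 1136 genome windows with 3 or 4 peaks, 108 had one, or 9.51%. The number of gene windows moved with the span: 3 at 10 kb, where 14.8% of the genome windows with 3 or 4 peaks had such a group, 2 at 3 kb (7.92%) and 1 at 2 kb (6.34%). The 3 groups account for the 9 of 11 peaks that had another peak within 5 kb, so this count restates them; in the list 38.5% did. Within 1 kb it was 4 of 11, the first pair of Ccnd1 and the last pair of Myc, against 24.9% of the list. Joining peaks within 1000 bp of each other left 2 regions each in the Ccnd1 and Myc windows and all 4 in the Cdkn1a window.

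**Figure D4:**
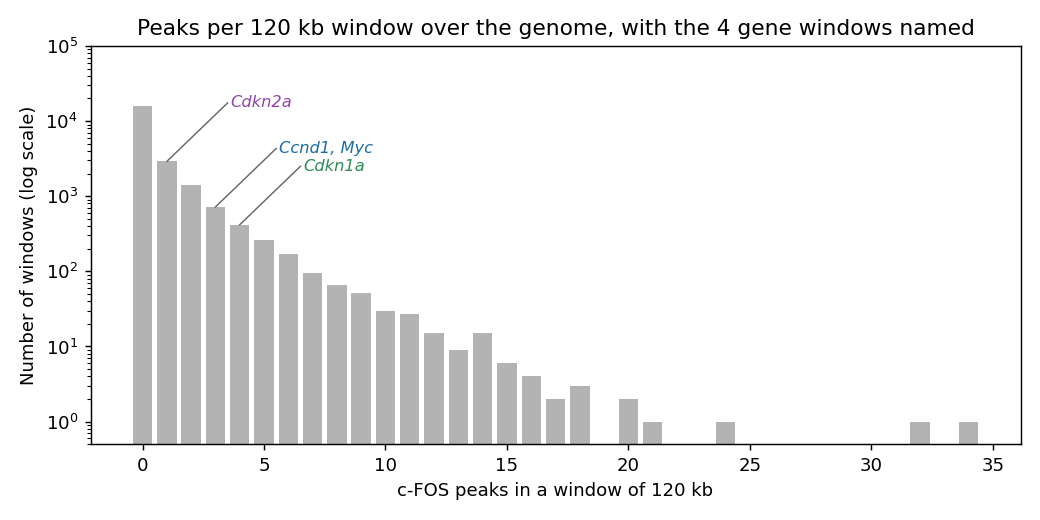
Number of 120 kb windows over the genome (log scale) by how many c-FOS peaks they held, with the positions of the 4 gene windows named. Most windows held 0 peaks, and the counts of 3 for Ccnd1 and Myc and 4 for Cdkn1a were reached or passed by 8.59% and 5.34% of windows, while the fullest window held 34.

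As a group the 11 peaks were neither uniformly wide nor uniformly narrow, and the gene windows differed among themselves. Their widths ran from 111 to 348 bp with a median of 182 bp, beside quartiles of 119 and 225 bp for the list. Above the list's median were 6 of the 11 and below it 5. The peaks of the Ccnd1 window were all below, those of the Myc window and the single peak of the Cdkn2a window all above, and those of the Cdkn1a window were divided. Only 2 of the 11, the first of the Myc window and that of the Cdkn2a window, were wider than 300 bp, as were 11.8% of all listed peaks. None had the narrowest width of 98 bp, which 1613 peaks of the list shared. Width is not a measure of binding strength, and peaks of 1 window are not replicates of each other.

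**Figure D5:**
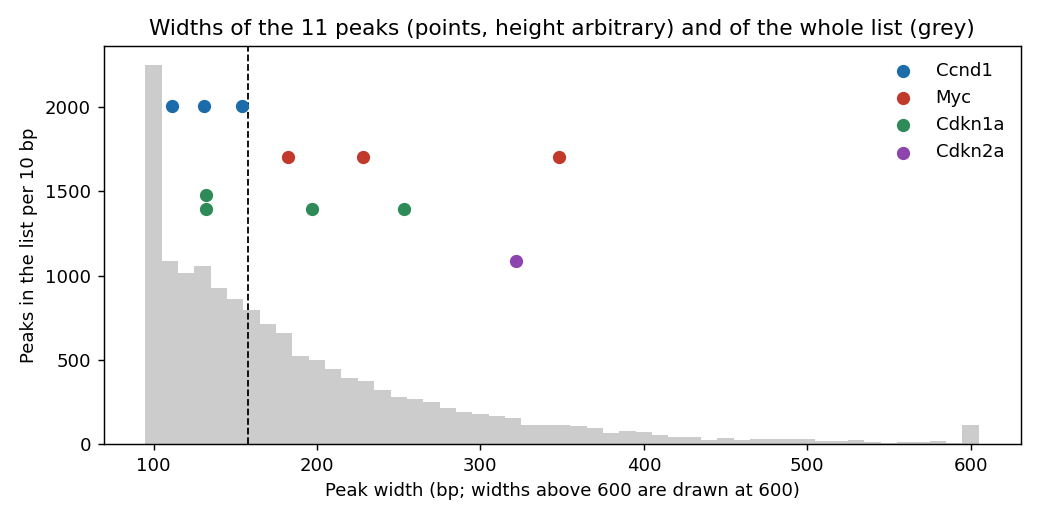
Widths in bp of the 11 c-FOS peaks (points coloured by gene, at arbitrary heights) over the distribution of all 15011 widths (grey bars, peaks per 10 bp) with the list's median of 158 bp as a dashed line. All Ccnd1 points lie left of the line and all Myc points right of it.

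The sequences under the peaks were not used here, since they need the mm9 genome. Promoters from RefSeq (assembly GRCm38.p6) were searched instead, as a description of the genes, and no mm9 peak was placed on them. Each promoter ran from 250 bases before to 50 after a start. The AP-1 element TGACTCA, with its reverse complement TGAGTCA, was found in 5.20% of 32851 promoters, and the related CRE element TGACGTCA, which reads the same on both strands and is the AP-1 element with 1 G inserted, in 1.79%. Neither is found inside the other as an unbroken run. Of a list of 30 cell cycle genes, 24 matched the table with 31 promoters, and Ccnd1, Ccnd2, Ccne2, Cdkn1c, Myc and Rb1 were not matched. The AP-1 element was found in 1 of the 31, that of Mdm4, a relative of Mdm2 that holds Trp53 in check. The CRE element was also found in 1, that of Cdkn2b.

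By role, the list held 5 matched genes among the G1 cyclins and kinases with 6 promoters, 6 kinase inhibitors with 9, 5 genes of the Rb and E2F families with 7, 3 of the Trp53 arm with 4 and 5 of the Myc network with 5. Neither element occurred in a matched promoter of the cyclins and kinases (5 of 8 genes matched, without Ccnd1), the Rb and E2F genes (5 of 6) or the Myc network (5 of 6, without Myc itself). These counts say only that the letters are or are not in these windows of 300 bases. The GC box GGGCGG (reverse complement CCGCCC), the element of the factor Sp1, was added after the sequences were seen; 35.7% of all promoters held it and 23 of the 31 did.

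The promoters below are shown because Cdkn1a and Cdkn2a each have 2 starts in the table and Cdkn2b is the neighbour with a CRE element. They give the 250 bases before each start, 5′ to 3′ on the gene's strand, with the AP-1 element, the CRE element and the GC box in capitals. The lines of Cdkn1a are chr17:29090729-29090978 and chr17:29093519-29093768, plus strand. Those of Cdkn2a are chr4:89294620-89294869 and chr4:89282193-89282442, and that of Cdkn2b is chr4:89311033-89311282, all on the minus strand and all on GRCm38.p6, not on mm9.
Cdkn1a, first start: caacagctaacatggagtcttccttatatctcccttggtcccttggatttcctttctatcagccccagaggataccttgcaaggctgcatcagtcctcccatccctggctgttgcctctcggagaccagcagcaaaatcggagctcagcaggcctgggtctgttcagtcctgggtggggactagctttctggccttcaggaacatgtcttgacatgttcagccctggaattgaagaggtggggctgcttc
Cdkn1a, second start: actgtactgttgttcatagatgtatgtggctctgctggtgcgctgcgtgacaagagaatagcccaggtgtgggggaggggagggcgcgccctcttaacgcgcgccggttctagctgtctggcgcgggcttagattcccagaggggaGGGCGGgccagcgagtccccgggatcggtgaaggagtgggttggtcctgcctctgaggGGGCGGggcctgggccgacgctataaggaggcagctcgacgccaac
Cdkn2a, first start: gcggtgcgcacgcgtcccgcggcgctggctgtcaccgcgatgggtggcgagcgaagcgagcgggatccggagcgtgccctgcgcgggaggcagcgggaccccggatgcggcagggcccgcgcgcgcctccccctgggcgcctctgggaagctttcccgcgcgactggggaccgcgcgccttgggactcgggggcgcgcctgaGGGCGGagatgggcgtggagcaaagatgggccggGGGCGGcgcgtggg
Cdkn2a, second start: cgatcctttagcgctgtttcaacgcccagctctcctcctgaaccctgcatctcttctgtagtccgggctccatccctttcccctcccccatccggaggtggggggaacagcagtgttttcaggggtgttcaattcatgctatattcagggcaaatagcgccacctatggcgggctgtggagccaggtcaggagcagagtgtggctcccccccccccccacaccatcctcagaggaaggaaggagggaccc
Cdkn2b: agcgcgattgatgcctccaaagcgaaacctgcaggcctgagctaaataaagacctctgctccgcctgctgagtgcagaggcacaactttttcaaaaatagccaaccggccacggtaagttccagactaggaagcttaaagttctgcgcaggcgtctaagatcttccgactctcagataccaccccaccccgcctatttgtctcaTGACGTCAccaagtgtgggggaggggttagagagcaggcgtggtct

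In neither promoter of Cdkn1a nor of Cdkn2a were the letters of the AP-1 or CRE element present in the 300 bases searched. The second start of Cdkn1a and the first of Cdkn2a each carried 2 GC boxes before the start, and the other start of each gene carried 0. Their content of G and C also differed, with 64.8% at the second start of Cdkn1a against 54.0% at the first, and with 78.4% at the first start of Cdkn2a, the highest of the 5 promoters shown. In the 250 bases shown for Cdkn2b the CRE element was the only one marked, and its GC box lay in the 50 bases after the start, which are not shown.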

How the data were processed

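The series holds 2 c-FOS ChIP samples and 1 input of ASZ001 cells, grouped by their titles. Reads were aligned with Bowtie2 to mm9 and peaks called with MACS2, per the submitters' processing notes; the tool versions, the threshold, any use of the input and the pooling of samples were not stated there. The authors deposited 1 list of peak positions, with no score, count or replicate, so no depth or test over samples could be had. None of the peaks overlapped another, and 0 lay beyond an mm9 chromosome end (lengths from GenomeInfoDb 1.38.1, R 4.3.3). Peaks were assigned by midpoint; coordinates are 1-based on mm9.

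Backgrounds are whole windows of 120 kb and 1.70 Mb tiled from the first base of chromosomes 1 to 19, X and Y. They were computed with scipy 1.17.1, pandas 2.3.3 and numpy 2.4.6 under Python 3.11.15, and figures drawn with matplotlib 3.10.9. Window counting was tested on 20 simulated lists. Gene names and promoters are from RefSeq (GRCm38.p6), whose coordinates were not joined to the peaks. The named genes are the 4 members with every peak, 3 protein-coding neighbours on each side, and genes of the list of 30 with an element. Members and lists were chosen with earlier results of these data known. Alternatives were window size, overlap, merging, width, tile start, motif and, added later, the span of a group.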

Additional observations from a re-analysis of the deposited data

How the results depend on the processing

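Counting any overlap in place of the midpoint, halving the windows to 60 kb about their centres or leaving out peaks of the narrowest width kept all 5 counts (the 4 windows and their sum). Merging peaks within 1000 bp left 9 regions, 2 each for Ccnd1 and Myc. Windows of 240 kb held 20 peaks in all, with 6 for Myc, 7 for Cdkn1a, 4 for Cdkn2a and still 3 for Ccnd1. By construction a larger window can gain peaks but not lose them. The next peak on the right of the Ccnd1 window, 62.3 kb after it, fell just outside the larger window. The wider Myc window held 9. Keeping only peaks wider than the list's median left 6 in all, 3 for Myc, 2 for Cdkn1a, 1 for Cdkn2a and 0 for Ccnd1, all 3 Ccnd1 peaks being narrower than that.

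With tiles shifted by 0.5 windows, 27.9% of windows held a peak. A group of 3 midpoints was found in 3 gene windows with a span of 4 or 10 kb, in 2 with 3 kb and in 1 with 2 kb. The share of promoters was 1.79% for the CRE element alone and 6.96% for either element. With no score and no replicate in the list, neither a stricter threshold nor leaving out a replicate was run. No paired analysis was possible because the 1 list names no replicate. What depth limits could not be judged, and pathway genes other than the 4 were not counted for peaks, since mm9 gene positions were not used.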
